A study of Homo sapiens with 19 samples.

Results

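The genes described here are 44 genes of DNA replication and S phase, taken from a fixed list of names, out of 20033 protein-coding genes of GENCODE release 44. They comprise 5 origin-licensing genes, the 6 subunits of the MCM helicase, 6 genes that activate it, 6 genes of the sliding clamp and its loader, 9 genes of the replicative polymerases, 5 genes of flap cleavage, ligation and single-strand binding, 3 genes of deoxynucleotide supply, and 4 genes of the E2F1 and cyclin switch. The list is not defined by a threshold on any measured value. The cells were MOLM-13, an established human acute myeloid leukaemia line, grown in RPMI1640 with fetal bovine serum, and chromatin was profiled by CUT&RUN, in which an antibody guides a nuclease to release the DNA that carries a mark. 3 histone marks were compared between cells given Corin and cells given the vehicle DMSO for 24 h, with 2 libraries per mark and treatment, which makes 12 of the 19 libraries of the series. Corin is a compound that blocks 2 enzyme activities of the CoREST complex, the demethylase LSD1 and its partner histone deacetylases, and its labelled dose is 0.1 µM. The labels print the same dose on the DMSO libraries, where its meaning is unclear. The other 7 libraries (all-trans retinoic acid with Corin, LSD1 and IgG) were not analysed here. No IgG signal was therefore subtracted or compared. Nothing in the labels says whether the 2 libraries of a group came from separate cultures, so the spread between them may be technical.

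Replication begins when the origin recognition complex, CDC6 and CDT1 load the MCM helicase on DNA in G1 phase. At the start of S phase CDC45 and the GINS complex turn the helicase on, the primase and polymerases copy the strands, and the PCNA clamp, loaded by replication factor C, holds the polymerases in place. Many of these genes are transcribed together under the E2F factors, which the retinoblastoma protein restrains until cyclin-dependent kinases release them. H3K27ac, an acetylation, marks active promoters and enhancers. H3K4me2 flanks active promoters and marks enhancers, and is a substrate of LSD1. H3K4me3 sits at the start sites of active genes.

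The deposited files list peaks and no reads, so the measure is the length of DNA under peaks (bp) within 10 kb either side of a gene's canonical start site (TSS), and within 2 kb as a narrower window. The read depth of each library is unknown, so no interval that needs it was computed. The H3K27ac lists held 34424 and 30029 peaks with Corin against 17599 and 19995 with DMSO, the H3K4me2 lists 41152 and 40042 against 30896 and 32299, and the H3K4me3 lists 11757 and 11883 against 11104 and 11343. Peak number therefore moved with the treatment, so the counts of calls within 10 kb are also given for values divided by all bp covered in a library. Every Corin library covered more bp than either DMSO library of its mark, so this scaling can end a higher call but not a lower one. A gene was called higher where both Corin libraries lay above both DMSO libraries, and lower in the reverse case. With 2 libraries against 2, the exact two-sided permutation test of a single gene has 6 arrangements and cannot go below p = 0.333, so that test cannot separate a single gene. The labelled cell type fits its markers in part: of 8 myeloid markers, 5 carried a promoter peak of H3K27ac in all 4 libraries, 6 of H3K4me2 and 5 of H3K4me3, CD33, SPI1, CEBPA and FLT3 among them for every mark, while CD14 had H3K27ac in 0 and ITGAM in 1 library. None of 3 T cell markers and none of 3 erythroid markers had a promoter peak in any library. Of other markers, CD79A of B cells had H3K27ac in 3 and H3K4me2 in 4 libraries, EPCAM of epithelium had H3K4me2 in 3, and KRT8 had H3K27ac in 1 and H3K4me2 in 2, and none of these 3 had H3K4me3.

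The promoters of these genes carried E2F words more often than other promoters. RefSeq promoter sequence (GRCh38.p14, 250 bases before and 50 after the start) was matched for 37 of the 44 genes. The words searched on both strands were TTTCCCGC, TTTCGCGC, TTTGCCGC and TTTGGCGC, of which matches on opposite strands can overlap, as in MCM2 and MCM6. At least 1 word lay in 18 of the 37 (48.6%), against 3.31% of all 35116 promoters in the table, 4.1% of 22198 protein-coding promoters and 5.69% of the 11114 protein-coding promoters whose genes had H3K4me3 at the start in all 4 libraries. Distances in these sequences are from the RefSeq start, which lies within 50 bp of the GENCODE start used for coverage in 34 of the 37 genes and 6664, 2825 and 114 bp from it in PCNA, PRIM2 and RRM1. Of 25 words, 19 began within 100 bases of the RefSeq start, and 5 genes held 2 or more. CCAAT, the box bound by NF-Y, lay in 62.2% against 35.8% of the H3K4me3-marked promoters, and GGGCGG, the GC box, in 73.0% against 69.3%. TTTGAA, the CHR element of genes of the later cell cycle, lay in 1 of 37 promoters (2.7%) against 10.0%, and TATAAA also in 1 (2.7%) against 5.45%. The NRF1 palindrome lay in 2 promoters (5.41%) against 2.36%. All 4 E2F words contain the pair CG. Its median number per 300 bases was 31 in these promoters, 21 in protein-coding and 26 in H3K4me3-marked ones. The word shares were not adjusted for this. A match is a description of these letters and not a site of binding.

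The following promoters, each the 250 bases before the RefSeq start in the direction of transcription on GRCh38.p14, are those of 6 genes on which the results below turn. Capitals mark the E2F words on either strand. E2F1 (chr20:33686386-33686635, minus strand) shows a pair of words 33 and 20 bases before the start, and CDT1 (chr16:88803539-88803788, plus strand) 1 word 35 bases before it. MCM3 (chr6:52284743-52284992, minus strand) has 1 word 174 bases before the start, and its last 4 capitals begin a word that runs across the start. CDC6 (chr17:40287629-40287878, plus strand) has none in this stretch and 1 that begins 7 bases past the start. POLD1 (chr19:50384073-50384322, plus strand) and RFC2 (chr7:74254400-74254649, minus strand) hold none of the 4 words in these stretches and are shown because their genes were higher in H3K27ac.
E2F1: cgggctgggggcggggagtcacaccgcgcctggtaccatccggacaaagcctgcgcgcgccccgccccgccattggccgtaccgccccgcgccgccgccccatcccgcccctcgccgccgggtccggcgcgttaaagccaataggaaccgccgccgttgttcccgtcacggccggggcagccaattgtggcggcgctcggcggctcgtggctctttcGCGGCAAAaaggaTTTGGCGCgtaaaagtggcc
CDT1: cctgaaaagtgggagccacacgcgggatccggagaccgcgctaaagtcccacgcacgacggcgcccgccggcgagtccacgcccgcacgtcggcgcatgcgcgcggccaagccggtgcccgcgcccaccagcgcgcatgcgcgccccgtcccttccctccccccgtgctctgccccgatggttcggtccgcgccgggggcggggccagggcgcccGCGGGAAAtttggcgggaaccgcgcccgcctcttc
MCM3: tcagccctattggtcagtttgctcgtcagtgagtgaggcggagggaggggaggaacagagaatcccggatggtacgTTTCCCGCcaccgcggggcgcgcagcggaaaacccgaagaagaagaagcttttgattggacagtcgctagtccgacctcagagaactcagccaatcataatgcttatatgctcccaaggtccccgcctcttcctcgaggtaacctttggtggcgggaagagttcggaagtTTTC
CDC6: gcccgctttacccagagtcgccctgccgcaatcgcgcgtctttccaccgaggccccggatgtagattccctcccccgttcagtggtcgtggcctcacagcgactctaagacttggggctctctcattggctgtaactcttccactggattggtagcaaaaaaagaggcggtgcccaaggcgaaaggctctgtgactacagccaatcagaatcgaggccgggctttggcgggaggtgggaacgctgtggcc
POLD1: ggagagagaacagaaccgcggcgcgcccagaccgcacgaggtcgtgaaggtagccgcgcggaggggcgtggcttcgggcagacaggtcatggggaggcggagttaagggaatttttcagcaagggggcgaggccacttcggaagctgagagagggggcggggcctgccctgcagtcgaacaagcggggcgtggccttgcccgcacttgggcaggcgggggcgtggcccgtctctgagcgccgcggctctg
RFC2: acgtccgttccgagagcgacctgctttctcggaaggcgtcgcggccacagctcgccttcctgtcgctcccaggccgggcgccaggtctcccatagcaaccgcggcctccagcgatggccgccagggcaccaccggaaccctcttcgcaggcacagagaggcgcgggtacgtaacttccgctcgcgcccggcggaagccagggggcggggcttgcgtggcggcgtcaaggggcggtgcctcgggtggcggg

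The printed stretches lay under the marks to different extents. In CDT1 and RFC2 all 250 bases were under H3K4me3 peaks in every library, and in E2F1 203 and 212 bases with Corin and 65 and 177 with DMSO. All 250 bases of the E2F1 stretch were under H3K4me2 in all 4 libraries, whereas H3K27ac covered 88 bases in 1 Corin library and 0 in the other 3, so the pair of E2F words was under no H3K27ac peak in any library. The CDC6 stretch had 0 bases under H3K4me2 in all 4 libraries. Over all 25 words, H3K4me3 peaks covered a mean of 19.25 per library, H3K27ac 10.25 and H3K4me2 9.25. Both libraries of a treatment covered 18 words with Corin and 18 with DMSO in H3K4me3. In H3K4me2 the numbers were 7 and 7, and in H3K27ac 8 and 4.

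Nearly all of the genes carried the methyl marks at their promoters before and after treatment, and fewer carried H3K27ac. A peak lay within 1 kb of the TSS in all 4 libraries for 43 of 44 genes in H3K4me2 (97.7%, against 58.9% of protein-coding genes), for 42 in H3K4me3 (95.5%, against 48.3%) and for 27 in H3K27ac (61.4%, against 25.8%). The H3K27ac count per library was 42 and 40 with Corin and 32 and 32 with DMSO. All protein-coding genes also separated, at 41.9% and 40.8% against 29.6% and 34.9%, as did those with H3K4me3 at the start, at 82.0% and 80.3% against 59.0% and 69.6%. The count of 27 fell to 14 at a score of at least 100. 4 genes had such a peak in both Corin libraries and in neither DMSO library: RFC2, PRIM2, POLD3 and CCNE2. That is 4 of 44, while 3.21% of protein-coding genes did so. The share among genes with H3K4me3 at the start was not computed. At the start of any protein-coding transcript, RFC2 and CCNE2 also had a peak in DMSO replicate 2. No gene showed the reverse.

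The marks differed in where they lay around the start. H3K4me3 was centred on and just past the TSS, where it covered a mean of 38.5 of 44 genes with Corin and 39.0 with DMSO, with its maximum 50 and 40 bases downstream (42.5 and 43.0 genes). H3K4me2 dipped at the TSS (19 and 19.5 genes) and reached 39.5 genes at 850 bases and 40.0 at 860 bases downstream. H3K27ac covered 26.5 genes at the TSS with Corin and 14.5 with DMSO, and peaked at 36.5 genes 160 bases downstream with Corin and at 25.5 genes 140 bases downstream with DMSO. At the TSS base itself 30 and 23 genes were covered with Corin against 16 and 13 with DMSO in H3K27ac, so the groups did not overlap. In percent these are 68.2 and 52.3 against 36.4 and 29.5, beside 25.8 and 24.8 against 12.3 and 17.9 for all protein-coding genes, which did not overlap either. In H3K4me2 the counts were 23 and 15 against 15 and 24, and in H3K4me3 38 and 39 against 37 and 41, so those overlapped.

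**Figure D1:**
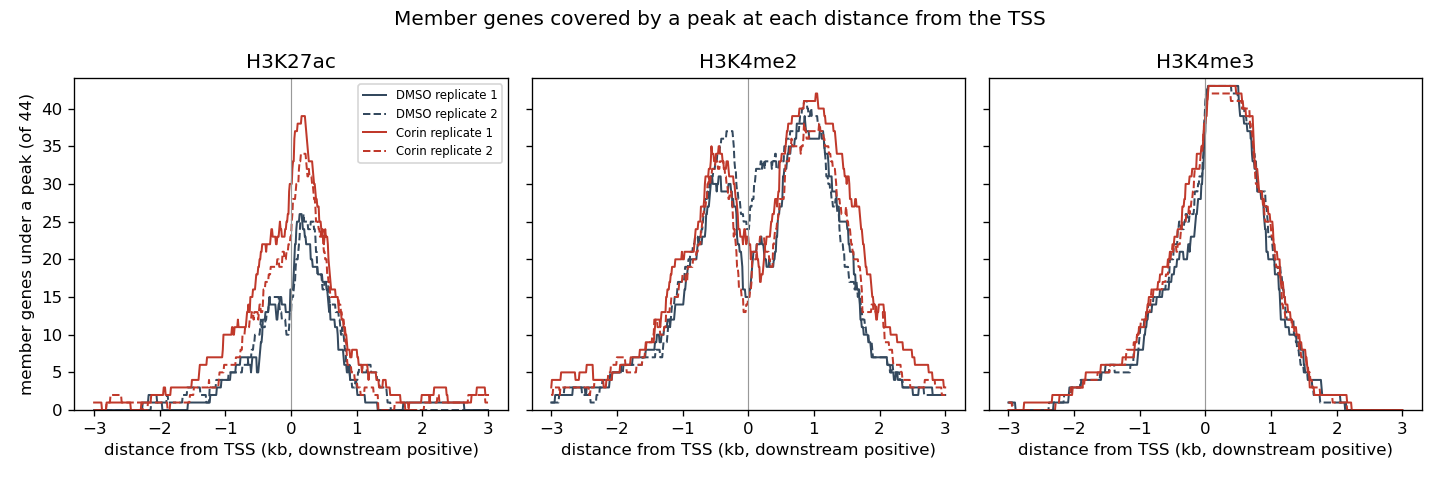
Number of the 44 genes lying under a peak (y axis) at each distance from the TSS in kb, downstream positive (x axis), 1 panel per mark and 1 line per library. Both Corin lines of H3K27ac lie above both DMSO lines at the TSS (30 and 23 against 16 and 13 genes, where all protein-coding genes also separate), H3K4me2 dips there in all libraries, and the H3K4me3 lines run close together.

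In unscaled bp, H3K27ac coverage of these genes was higher in both Corin libraries than in both DMSO libraries. Their summed coverage within 10 kb was 67.181 and 52.496 kb with Corin and 31.538 and 35.482 kb with DMSO, so that the mean was 78.57% higher, beside 75.61% over all protein-coding genes. As a share of all covered bp it was lower, at 0.2572% and 0.261% against 0.2849% and 0.2824%. Both Corin libraries were above both DMSO libraries for 21 of 44 genes (47.7%) and below them for 0. The background was 29.0% higher and 0.314% lower over all protein-coding genes, and 50.6% higher and 0.547% lower over the 9685 genes with H3K4me3 at the start in all 4 libraries, where the corresponding counts were 21 and 0 of 42 genes (50% and 0%). The share was thus near that of other genes with H3K4me3 at the start and is not a result about these genes. When each value was divided by all bp covered in its library, the calls were 5 higher and 9 lower, and those of protein-coding genes 8.75% and 13.3%. E2F1, POLD1, POLD3, PRIM2 and RFC2 were the 5 called higher on both scales. POLD3, PRIM2 and RFC2 had 0 bp in both DMSO libraries, so scaling could not end their calls and is a check only for E2F1 and POLD1. With the same number of top-scoring peaks kept in each H3K27ac list, 12 genes were higher and 1 lower, against 16.9% and 1.69% of protein-coding genes. Leaving out Corin replicate 2 gave 34 higher (41.6% of protein-coding genes). Lower calls numbered 2 without Corin replicate 1 (3.23%), 5 without DMSO replicate 1 (3.79%) and 1 without DMSO replicate 2 (1.96%). The median difference was 378 bp, against 0 over all protein-coding genes, and 394.75 against 409.5 bp over those with H3K4me3 at the start. It was 242.75 bp without Corin replicate 1 and 228.25 bp at the matched peak number.

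Summed H3K4me2 coverage was 132.727 and 115.901 kb with Corin and 106.293 and 116.493 kb with DMSO, which overlapped, and as a share of all covered bp it was lower, at 0.2802% and 0.2749% against 0.3179% and 0.3186%. For H3K4me2, 15 genes were called higher (34.1%) and 3 lower (6.82%), against 28.2% and 2.78% of protein-coding genes, and against 37.2% and 4.33% of those with H3K4me3 at the start. Scaled to all covered bp the split turned to 2 higher and 23 lower, with 6.87% and 32.8% of protein-coding genes. The median H3K4me2 difference was 198 bp against 60.5 bp over all protein-coding genes, and 231 against 238.5 bp over those with H3K4me3 at the start. The median of 198 bp turned to -22 bp without Corin replicate 1, which held the most H3K4me2 coverage. It was 493.5 bp without Corin replicate 2, 91.75 bp without DMSO replicate 1, 321 bp without DMSO replicate 2, 115.25 bp within 2 kb and 59.5 bp at a matched peak number. The H3K4me2 counts were 32 higher without Corin replicate 2 and 23 without DMSO replicate 2 (46.9% of protein-coding genes in both). The lower calls were 15 without Corin replicate 1 (14.1%), 6 without DMSO replicate 1 (15.2%) and 7 without DMSO replicate 2 (5.81%).

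Summed H3K4me3 coverage was 85.644 and 82.425 kb with Corin against 77.078 and 81.717 kb with DMSO. As a share of all covered bp it was 0.5473% and 0.5425% against 0.5419% and 0.5461%, which overlapped. For H3K4me3, 11 genes were called higher (25.0%) and 2 lower (4.55%), against 14.7% and 4.77% of protein-coding genes and 26.3% and 8.77% of those with H3K4me3 at the start. The split was 5 higher and 8 lower when scaled to all covered bp, with 8.04% and 11.3% of protein-coding genes. The H3K4me3 counts were 18 higher and 12 lower without Corin replicate 1 (23.3% and 14.3% of protein-coding genes) and 25 and 5 without Corin replicate 2 (27.4% and 10.6%). They were 23 and 4 without DMSO replicate 2 (28.1% and 10.5%), and 8 were lower without DMSO replicate 1 (15.1%). The median difference was 62.75 bp against 0 over all protein-coding genes, and 69 against 60 bp over those with H3K4me3 at the start. It was 27.25 bp without Corin replicate 1 and 112.75 bp without Corin replicate 2 or without DMSO replicate 2.

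**Figure D2:**
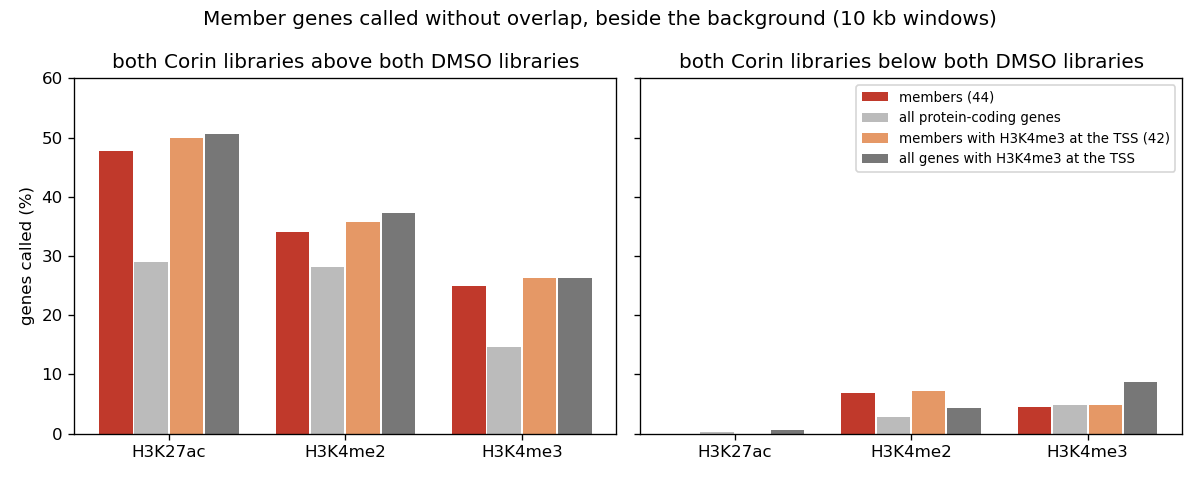
Percent of genes called (y axis) for each mark within 10 kb of the TSS, for the 44 genes, all protein-coding genes, and the genes of each set with H3K4me3 at the start in all 4 libraries, higher calls on the left and lower calls on the right. Among genes with H3K4me3 at the start, the higher bars of the replication genes and of all genes are close (H3K27ac 50% and 50.6%, H3K4me2 35.7% and 37.2%, H3K4me3 26.2% and 26.3%), while scaling to all covered bp turns H3K27ac to 5 higher and 9 lower, H3K4me2 to 2 and 23 and H3K4me3 to 5 and 8 of the 44 genes.

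In the 2 kb window the counts were 18 higher and 0 lower for H3K27ac (background 22.2% and 0.319%), 11 and 5 for H3K4me2 (18.1% and 4.73%) and 12 and 2 for H3K4me3 (12.6% and 4.88%). Among genes with H3K4me3 at the start the 2 kb background was 42.8% higher and 0.62% lower in H3K27ac, 24.6% and 8.63% in H3K4me2, and 24.2% and 9.58% in H3K4me3. Over the 3 marks, 4 genes were called higher in every one: CDT1, MCM5, MCM6 and POLD1. That is 9.09%, against 4.37% of protein-coding genes and 7.8% of those with H3K4me3 at the start. A further 11 were higher in 2 marks (25%, against 15.2% and 24.9%), 13 in 1 (29.5%, against 28.3% and 40.8%) and 16 in 0 (36.4%, against 52.1% and 26.4%). Scaled to all covered bp, 0 genes were higher in 3 marks (against 0.24% of protein-coding genes and 0.361% of those with H3K4me3 at the start). On that scale 2 genes were higher in 2 marks (4.55%, against 3.11% and 4.14%). The 16 genes higher in 0 marks without scaling include ORC1, CDC6, PCNA, RFC1, POLE, RRM1 and CCNA2. Of all calls in the 10 kb window, those lost under none of 5 alternatives (window, matched peak number, score of at least 100, scaling, outermost start) were POLD1 in H3K27ac, E2F1 and MCM3 (lower) in H3K4me2, and MCM4, MCM6, POLD2, RFC4, CDC45 (lower) and PRIM2 (lower) in H3K4me3. Not every alternative could end each of these calls. The scaling is no check for the 3 lower calls, the outermost start none for E2F1 and MCM6, whose canonical start is the outermost, and the window none for MCM6, POLD2, RFC4, CDC45 and PRIM2 in H3K4me3, which had no coverage beyond 2 kb. Whether the matched peak number and the score cut could end each call was not examined. In H3K4me3 both removed few peaks, as 10720 of 11757 and 10894 of 11883 scored at least 100 with Corin. With DMSO these were 10149 of 11104 and 10611 of 11343. Both left the H3K4me3 counts at 11 higher and 2 lower, so they were little or no check on those calls.

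**Figure D3:**
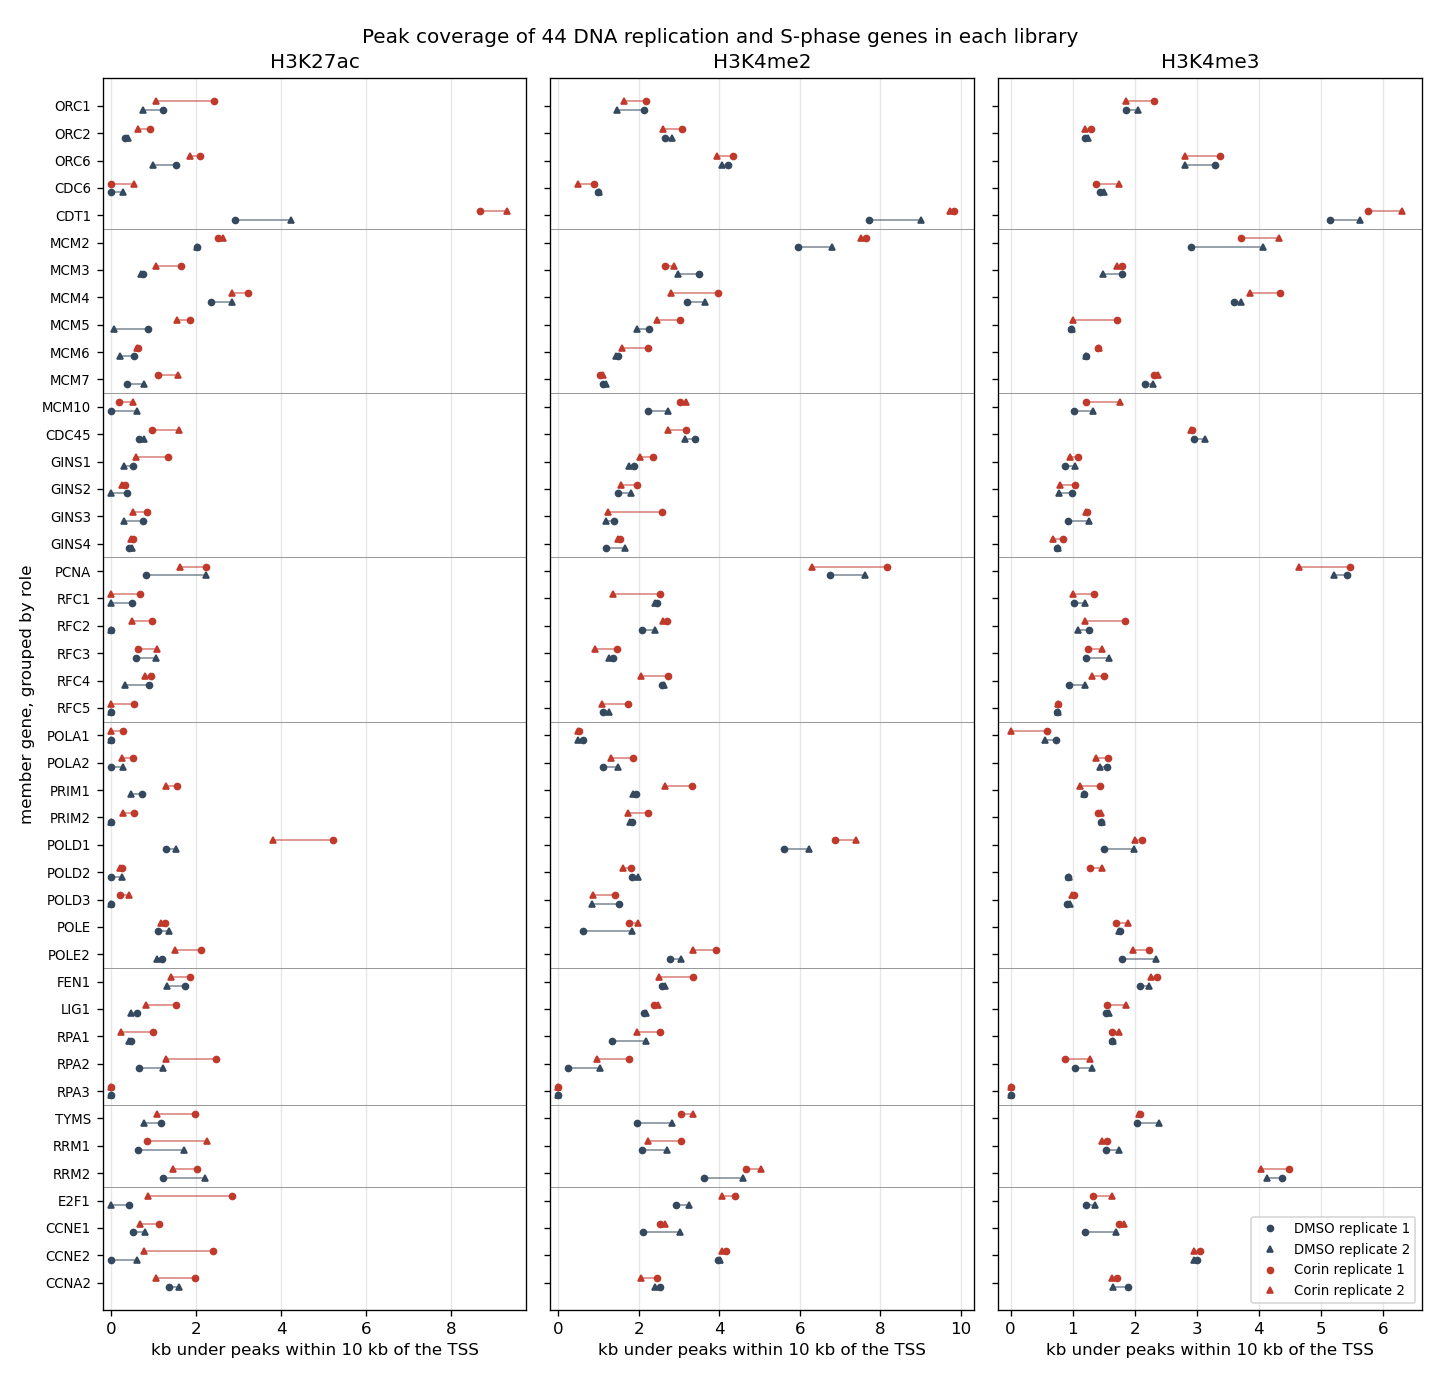
Coverage within 10 kb of the TSS in kb (x axis) for each of the 44 genes (y axis, grouped by role), 1 panel per mark, with red points for Corin and dark points for DMSO, circles for replicate 1 and triangles for replicate 2 and a line joining the libraries of a group. CDT1 stands out in every panel, at 8680 and 9314 bp against 2918 and 4231 bp of H3K27ac, and RPA3 sits at 0 throughout.

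Among the licensing genes, which mark origins and load the helicase, 3 of 5 were higher in H3K27ac (ORC2, ORC6 and CDT1), with a median difference of 722.5 bp over the 5 genes. The background is 29.0% of all protein-coding genes and 50.6% of those with H3K4me3 at the start, and all 3 calls were lost when scaled to all covered bp, where the sign of ORC6 turned. CDT1, which brings the MCM complex to the origin, had the largest H3K27ac difference of the 44 genes, at rank 13 of 20033 protein-coding genes. It covered 8680 and 9314 bp with Corin and 2918 and 4231 bp with DMSO, a difference of 5422.5 ± 729 bp (standard error of the difference, n = 2 and 2; 2.52-fold). Both Corin libraries were far above both DMSO libraries, but the call was lost when scaled to all covered bp, with the difference still positive. CDT1 H3K4me2 measured 9845 and 9724 bp against 7727 and 9003 bp (+1419.5 ± 641 bp), which turned to a lower call with that scaling, was lost within 2 kb and was 781.5 bp without DMSO replicate 1. Its H3K4me3 measured 5753 and 6314 bp against 5142 and 5638 bp (+643.5 ± 374 bp), or 363 bp without Corin replicate 2, and this call was also lost with that scaling. CDC6, the ATPase that works with CDT1 in loading, went the other way in H3K4me2, at 890 and 495 bp with Corin against 993 and 1006 bp with DMSO (-307 bp, or -109.5 bp without Corin replicate 2 and -504.5 bp without Corin replicate 1), a call lost at a score of at least 100. CDC6 had 0 and 548 bp of H3K27ac with Corin against 0 and 280 bp with DMSO, so the groups overlapped. ORC1, ORC2 and ORC6 are subunits of the origin recognition complex, and their H3K4me3 differences ran from 29.5 to 125 bp with overlap in each.

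All 6 subunits of the MCM helicase, the ring that unwinds DNA, were called higher in H3K27ac (median difference 585.75 bp, from 241.5 to 1231.5 bp), but scaled to all covered bp MCM2 and MCM4 turned to lower calls, MCM3 and MCM6 to a negative difference with overlap, and MCM5 and MCM7 stayed positive with overlap. The H3K27ac background is 29.0% of all protein-coding genes and 50.6% of those with H3K4me3 at the start. MCM2, MCM4 and MCM7 were lost at a matched peak number, and MCM2 and MCM7 at a score of at least 100. MCM5 covered 1866 and 1543 bp with Corin and 868 and 78 bp with DMSO, so DMSO replicate 2 was far below the rest. MCM6 covered 629 and 604 bp against 532 and 218 bp (+241.5 bp, or 84.5 bp without DMSO replicate 2 and 398.5 bp without DMSO replicate 1). Within 2 kb, 4 of the 6 stayed higher, and MCM4 had a difference of -53 bp with overlap. In H3K4me2, MCM2, MCM5 and MCM6 were higher and MCM3 lower. MCM2 H3K4me2 measured 7649 and 7532 bp against 5963 and 6793 bp (+1212.5 ± 419 bp, or 797.5 bp without DMSO replicate 1), with a sign that turned with scaling.

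MCM3 carried opposite calls in different marks. Its H3K27ac measured 1650 and 1065 bp with Corin against 759 and 704 bp with DMSO (+626 bp), and its H3K4me2 2656 and 2864 bp against 3504 and 2980 bp (-482 bp). Without Corin replicate 1 the H3K27ac difference was 333.5 bp, and the H3K4me2 difference ran from -220 bp without DMSO replicate 1 to -744 bp without DMSO replicate 2. The H3K4me2 difference was -647.5 bp within 2 kb, so it lay near the start. The H3K27ac sign turned with scaling to all covered bp, which lowers every Corin value relative to DMSO in both marks. In the promoter stretch printed above, H3K4me2 covered 0 and 32 bases with Corin and 250 and 122 with DMSO, and H3K27ac covered 250 and 138 against 166 and 28. In H3K4me3, 4 of 6 subunits were higher (MCM4, MCM5, MCM6 and MCM7), beside 14.7% of all protein-coding genes and 26.3% of those with H3K4me3 at the start. MCM5 and MCM7 were lost with scaling, where the sign of MCM7 turned. MCM4 and MCM6 were lost under none of the 5 alternatives, but the window and the outermost start could not end the MCM6 call. The matched peak number and the score cut were little or no check on either call. MCM4 H3K4me3 measured 4345 and 3855 bp against 3592 and 3710 bp (+449 ± 252 bp, or 204 bp without Corin replicate 1 and 694 bp without Corin replicate 2). Within 2 kb the difference was only 70.5 bp, and 378.5 bp lay in the upstream flank. MCM4 shares its promoter region with PRKDC, whose start lies 805 bp away on the opposite strand. MCM5 H3K4me3 measured 1715 and 1010 bp against 969 and 996 bp (+380 ± 353 bp), a difference that was 27.5 bp without Corin replicate 1 and 732.5 bp without Corin replicate 2.

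Of the 6 genes that activate the helicase, CDC45, a subunit of the active helicase, and GINS1 were called higher in H3K27ac, and MCM10 and GINS1 in H3K4me2. The GINS1 H3K27ac call was lost with scaling and with the outermost start, and its difference was 166.5 bp without Corin replicate 1 and 940.5 bp without Corin replicate 2. GINS1 H3K4me2 was lost under the same settings, with a sign that turned. MCM10 H3K4me2 was lost within 2 kb, at a matched peak number, at a score of at least 100 and with scaling. CDC45 covered 953 and 1588 bp of H3K27ac with Corin and 653 and 768 bp with DMSO (+560 bp), with a sign that turned with scaling, and 2923 and 2907 bp of H3K4me3 against 2952 and 3126 bp (-124 bp). The H3K27ac difference was 242.5 bp without Corin replicate 2 and 877.5 bp without Corin replicate 1, and the H3K4me3 difference -37 bp without DMSO replicate 2 and -211 bp without DMSO replicate 1. That H3K4me3 call held under the alternatives that could end it, and the start of UFD1 lies 727 bp away. CDC45 H3K4me2 was called lower within 2 kb but not within 10 kb, at 2789 and 2595 bp against 3278 and 3043 bp. MCM10 and GINS2 each lacked H3K27ac in 1 DMSO library. MCM10 had 195 and 522 bp with Corin against 0 and 608 bp with DMSO, and GINS2 had 316 and 267 bp against 374 and 0 bp. The GINS genes form the tetramer that joins MCM and CDC45, and GINS3 and GINS4 had overlapping groups in all 3 marks.

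Of the clamp and its loader, only RFC2 was called higher in H3K27ac. RFC2, a small subunit of replication factor C, covered 952 and 493 bp with Corin and 0 bp in both DMSO libraries, and a peak lay within 1 kb of its start in both Corin libraries. The call was lost at a matched peak number and at a score of at least 100. RFC2 H3K4me2 was also called higher, by 412.5 bp (255.5 bp without DMSO replicate 1), and turned to a lower call with that scaling. RFC1 had 689 and 0 bp of H3K27ac against 485 and 0 bp, and RFC5 528 and 0 bp against 0 and 0 bp. PCNA, the clamp itself, did not separate in H3K27ac, at 2230 and 1617 bp with Corin and 824 and 2241 bp with DMSO. Its promoter peak was among the strongest of the H3K4me3 lists, at score percentiles of 96.5 and 90.7 with Corin and 97.2 and 96.4 with DMSO. RFC4 H3K4me3 measured 1499 and 1306 bp against 939 and 1198 bp (+334 bp, or 204.5 bp without DMSO replicate 1) and was higher under each of the 4 alternatives that could end the call.

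Of the polymerase genes, 5 of 9 were higher in H3K27ac (PRIM1, PRIM2, POLD1, POLD3 and POLE2), beside 29.0% of all protein-coding genes and 50.6% of those with H3K4me3 at the start. PRIM1 and POLE2 were lost with scaling, POLE2 turning to a lower call. POLD1, the catalytic subunit of polymerase delta, covered 5213 and 3823 bp with Corin and 1300 and 1532 bp with DMSO (+3102 ± 705 bp, n = 2 and 2; 3.19-fold), and was the 1 H3K27ac call that held under all 5 alternatives. POLD1 H3K4me2 measured 6882 and 7387 bp against 5604 and 6217 bp (+1224 ± 397 bp), with a sign that turned with scaling. POLD1 H3K4me3 measured 2110 and 1998 bp against 1507 and 1983 bp, where the replicate 2 libraries of the groups were close and the difference was 71 bp without DMSO replicate 1 and 547 bp without DMSO replicate 2. This H3K4me3 call was lost within 2 kb and with scaling. PRIM2, the large subunit of primase, had 532 and 280 bp of H3K27ac with Corin and 0 bp in both DMSO libraries, and POLD3, an accessory subunit of polymerase delta, had 202 and 420 bp against 0 and 0 bp. Both were lost at a matched peak number and at a score of at least 100. PRIM2 H3K4me3 was called lower at 1413 and 1449 bp against 1456 and 1472 bp (-33 bp), or -15 bp without Corin replicate 1 and -51 bp without Corin replicate 2. None of the 5 alternatives ended the call, but the window and scaling could not. The matched peak number and the score cut were little or no check on it.

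POLD2, which links the delta subunits, had opposite calls in the methyl marks. H3K4me2 measured 1795 and 1593 bp with Corin against 1832 and 1984 bp with DMSO (-214 bp, or -113 bp without Corin replicate 2), a call lost at a score of at least 100, and H3K4me3 1279 and 1467 bp against 927 and 940 bp (+439.5 ± 94.2 bp), where both Corin libraries were well above both DMSO libraries. Its H3K27ac, at 255 and 206 bp against 0 and 259 bp, overlapped. POLA2, the B subunit of polymerase alpha, had 524 and 247 bp of H3K27ac against 0 and 268 bp. POLA1, the catalytic subunit of polymerase alpha on chromosome X, had 1 library with any H3K27ac (288 bp in Corin replicate 1) and lacked H3K4me3 in Corin replicate 2, at 589 and 0 bp against 730 and 562 bp. Where present, POLA1 promoter peaks had score percentiles of 11.9 with Corin and 21.0 and 30.7 with DMSO in H3K4me3, and of 27.7 and 49.1 against 38.5 and 42.0 in H3K4me2.

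Among the genes of flap cleavage, ligation and single-strand binding, LIG1, the replicative ligase, and RPA2, a subunit of the single-strand binding complex RPA, were higher in H3K27ac, by 633.5 and 938 bp. Both calls were lost with scaling, and that of LIG1 also within 2 kb and at a matched peak number. Without Corin replicate 1 these differences were 290.5 and 345 bp, and without Corin replicate 2 976.5 and 1531 bp. FEN1, the flap nuclease, carried 1 of the strongest H3K27ac promoter peaks, at score percentiles of 99.1 and 99.0 with Corin and 91.8 and 94.6 with DMSO, and its coverage overlapped between groups (1848 and 1415 bp against 1738 and 1320 bp). The start of TMEM258 lies 312 bp away on the opposite strand, and the peak was not divided between the 2 genes. RPA3, the small subunit of RPA, had 0 bp of any mark within 10 kb of its canonical start (chr7, 7718607) in all 12 libraries. At an annotated alternative start 77791 bp away (7640816), H3K4me3 covered 1300 and 1412 bp within 1 kb with Corin and 1146 and 1851 bp with DMSO, and H3K4me2 1087 and 646 bp against 733 and 1220 bp. H3K27ac was at 0 bp within 10 kb of that start in all 4 libraries. The value of RPA3 thus depends on which start is used, and that alternative start was looked at after the zero was seen.

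The genes of deoxynucleotide supply, TYMS (thymidylate synthase) and the ribonucleotide reductase subunits RRM1 and RRM2, had no H3K27ac call. TYMS H3K27ac was 1965 and 1087 bp with Corin and 1178 and 778 bp with DMSO, and RRM2 was 2026 and 1447 bp against 1224 and 2211 bp, so both overlapped. In H3K4me2, TYMS measured 3045 and 3334 bp against 1947 and 2817 bp and RRM2 4651 and 5034 bp against 3615 and 4579 bp, and both were called higher. These differences were 372.5 and 263.5 bp without DMSO replicate 1 and 1242.5 and 1227.5 bp without DMSO replicate 2. Scaled to all covered bp both calls were lost and the sign of RRM2 turned. Both were also lost at a matched peak number, where the sign of TYMS turned, and RRM2 had a difference of -248.5 bp with overlap within 2 kb. TYMS was also lost at a score of at least 100. Their H3K4me3 differences ran from -134.5 to 4 bp with overlap in each.

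E2F1, a transcription factor that activates many genes of this kind, was higher in H3K27ac and in H3K4me2. Its H3K27ac covered 2842 and 868 bp with Corin and 413 and 0 bp with DMSO (+1648.5 ± 1008 bp), where Corin replicate 1 carried most of the difference. Leaving out a library moved this difference from 661.5 to 2635.5 bp, 661.5 bp being the value without Corin replicate 1 and 2635.5 bp that without Corin replicate 2, and its sign turned at a matched peak number and the call was lost at a score of at least 100. E2F1 H3K4me2 measured 4400 and 4062 bp against 2933 and 3237 bp (+1146 ± 227 bp). It was the 1 higher H3K4me2 call lost under none of the alternatives, of which the outermost start could not end it. CCNE2, cyclin E2, covered 2396 and 781 bp of H3K27ac with Corin and 0 and 604 bp with DMSO (+1286.5 ± 862 bp), or 479 bp without Corin replicate 1 and 2094 bp without Corin replicate 2. The call was lost at a matched peak number, at a score of at least 100, with scaling and with the outermost gene end. Its H3K4me2 was called higher by 117.5 bp (59.5 bp without Corin replicate 1) and lower when scaled to all covered bp. Its H3K4me3 peak was among the strongest of each list and overlapped between groups, at 3049 and 2955 bp against 3003 and 2952 bp with score percentiles of 99.6, 98.1, 99.7 and 98.4 in the same order. CCNE1, cyclin E1, was called higher in H3K4me3 and in no other mark, at 1754 and 1833 bp against 1202 and 1693 bp (+346 bp, or 100.5 bp without DMSO replicate 1 and 591.5 bp without DMSO replicate 2), a call lost with scaling. CCNA2, cyclin A2, was called in no mark within 10 kb, and within 2 kb its H3K4me2 was called lower (-237.5 bp).

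The H3K27ac difference was divided by distance from the start. Of the summed difference of 26.33 kb, 8.142 kb lay within 2 kb upstream of the starts, 6.96 kb within 2 kb downstream, 5.011 kb in the upstream flank from 2 to 10 kb and 6.215 kb in the downstream flank, which puts 42.6% in the flanks. That share was 47.8% over all protein-coding genes and 42.5% over those with H3K4me3 at the start, so it is not a result about these genes, and without CDT1 and POLD1 it was 29.8%, a value added after they were seen to lead. Genes with any H3K27ac in these flanks in at least 1 library of a group numbered 8 with DMSO and 16 with Corin (18.2% and 36.4%), beside 19.1% and 28.0% of all protein-coding genes and 28.5% and 42.1% of those with H3K4me3 at the start. For H3K4me2 61.3% of a difference of 12.92 kb lay in the flanks, beside 70.6% over all protein-coding genes and 75.9% over those with H3K4me3 at the start. For H3K4me3 it was 8.92% of 4.637 kb, beside 36.9% and 34.4%. Without CDT1 and POLD1 the 2 shares were 55.4% and 0.0136%, and the H3K4me3 flank difference of the other genes summed to 0.0005 kb. CDT1 and POLD1 together carried 8.524 kb (32.4%) of the H3K27ac difference. Without those 2 genes the median H3K27ac difference was 338 bp, a value added in the same way.

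Part of the flank coverage can belong to neighbouring genes. Only canonical starts of protein-coding and long noncoding RNA genes were searched. Another such start lay within 10 kb of 21 of the 44 starts, a protein-coding one of 15, and a divergent start within 1 kb upstream of 11. At CDT1 the H3K27ac difference was 933 bp in the upstream and 746 bp in the downstream 2 kb, 1191 bp in the upstream and 2552.5 bp in the downstream flank. Of the flank difference 1084 bp lay within 1 kb of the start of APRT, which lies 8139 bp downstream on the opposite strand. At POLD1 the values were 233.5, 690, 1268 and 910.5 bp in the same order, and 628 bp lay within 1 kb of the start of NR1H2, 7890 bp upstream on the same strand. At E2F1, with no other start of these kinds of genes within 10 kb, they were 415.5, 269.5, 963.5 and 0 bp. The E2F1 flank held 1708 and 219 bp with Corin and 0 bp in both DMSO libraries, so most of its flank difference came from Corin replicate 1. Over the 44 genes 2.559 kb of the flank difference of 11.23 kb lay within 1 kb of another start. Coverage within 2 kb of the TSS was not divided between a gene and its divergent neighbour.

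**Figure D4:**
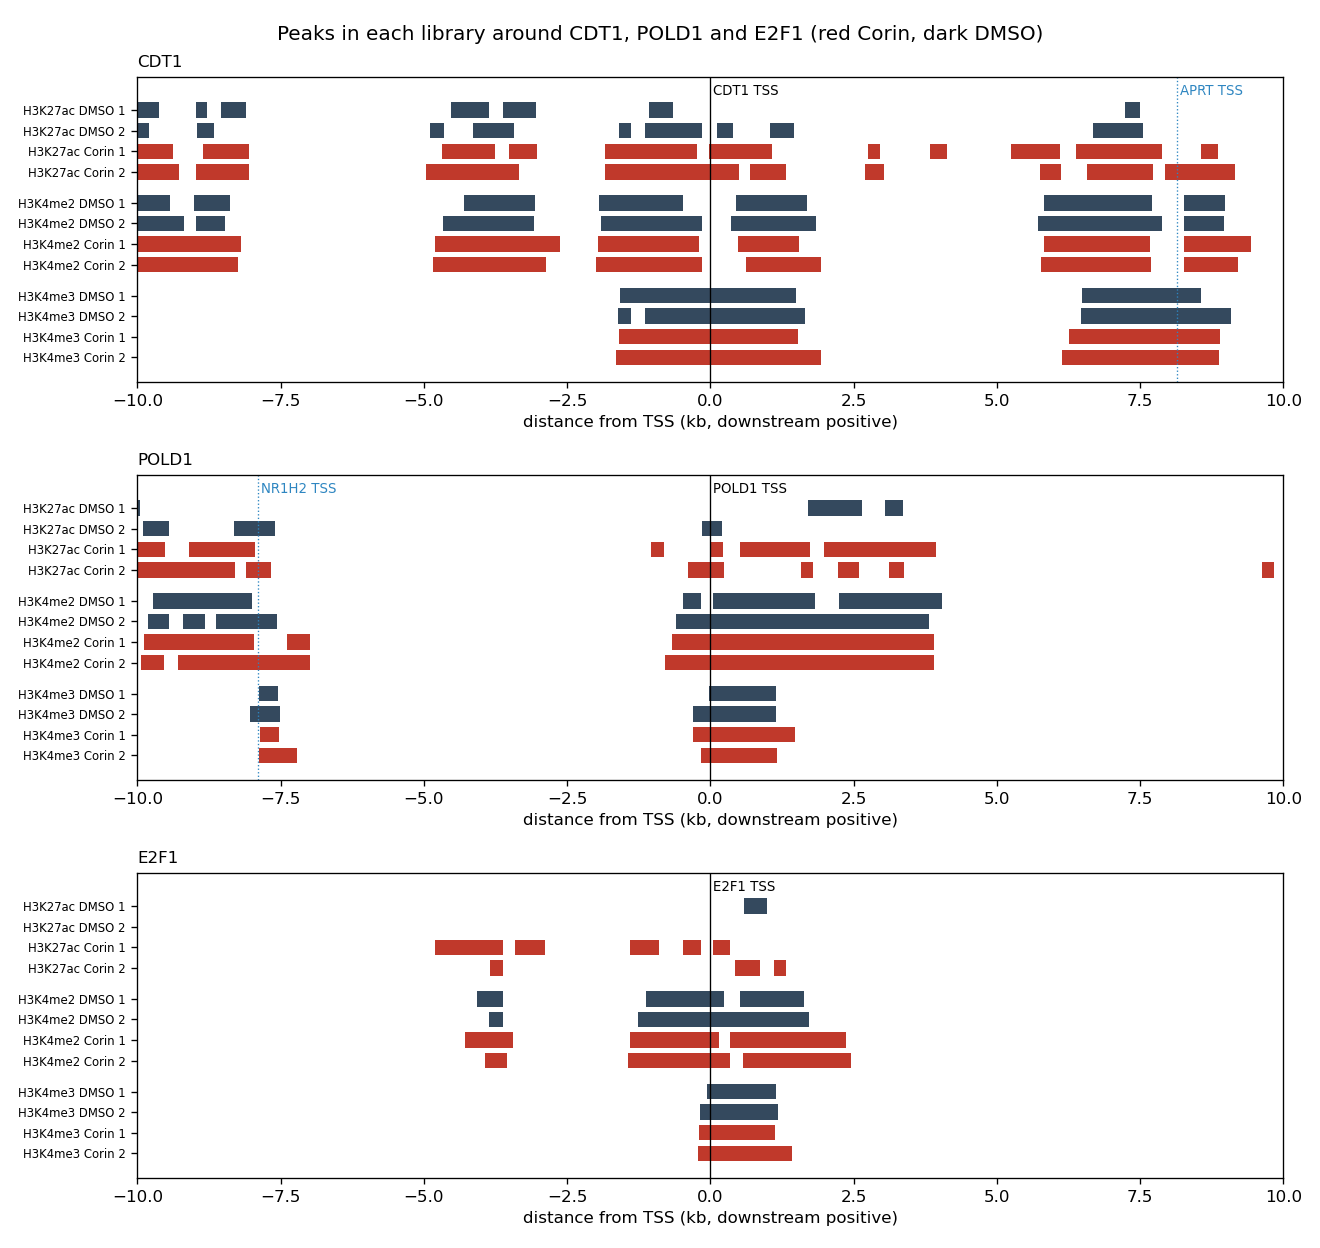
Peaks of each library (rows, red Corin, dark DMSO) around the starts of CDT1, POLD1 and E2F1, against distance from the TSS in kb with downstream positive (x axis), and dotted lines at the starts of neighbouring genes. H3K27ac peaks cover more of the window in the Corin rows at CDT1, where the flanks differed by 1191 and 2552.5 bp, and E2F1 shows an upstream cluster mostly in the row of Corin replicate 1, with 1708 and 219 bp in the Corin libraries and 0 bp in both DMSO libraries.

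The differences of the 3 marks were compared across the 44 genes. The differences of H3K27ac and H3K4me2 had a Pearson r of 0.56 and a Spearman rho of 0.349 over the genes, and r was 0.36 without CDT1 and POLD1. The values were 0.455, 0.266 and 0.153 for H3K27ac with H3K4me3, and 0.348, 0.202 and 0.186 for H3K4me2 with H3K4me3. These correlations run across genes that share the same libraries and are not independent replicates, so no p was computed. 12 genes were higher in both H3K27ac and H3K4me2 (27.3%, against 13.5% of protein-coding genes and 21.8% of those with H3K4me3 at the start), among them CDT1, MCM2, PRIM1, POLD1, LIG1, E2F1 and CCNE2. Scaled to all covered bp, 1 gene was (2.27%, against 1.57% and 1.47%).

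Related lists of genes were described in the same way. Of 34 further replication genes, such as CDC7, DBF4, CLSPN, TIMELESS and CHAF1A, 17 were higher and 0 lower in H3K27ac, 17 and 1 in H3K4me2, and 5 and 3 in H3K4me3, with median differences of 334.25, 277.5 and 19.5 bp. Of 17 genes of the E2F, retinoblastoma and DREAM system, 8 and 0, 7 and 1, and 3 and 3 were called, with medians of 363, 322 and 49.5 bp. Of 24 mitotic genes, such as CDK1, PLK1 and TOP2A, 8 and 0, 9 and 2, and 6 and 1 were called, with medians of 355, 272.25 and 99 bp. The 10 CDK inhibitors and D-type cyclins, which hold back or start the cycle, had 4 and 0, 3 and 1, and 3 and 0, with medians of 1274, 0 and 76.75 bp. The higher calls of all protein-coding genes were 29.0%, 28.2% and 14.7% for the 3 marks, and those of genes with H3K4me3 at the start, which all genes of the first 3 lists and 7 of the last 10 are, 50.6%, 37.2% and 26.3%. Scaled to all covered bp, the further replication genes had 3 higher and 13 lower in H3K27ac, 4 and 17 in H3K4me2, and 5 and 7 in H3K4me3. The E2F list then had 3 and 4, 0 and 9, and 0 and 4, the mitotic list 4 and 7, 2 and 13, and 3 and 2, and the last list 1 and 2, 0 and 7, and 2 and 1.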

How the data were processed

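CUT&RUN peak lists of 12 libraries were used, each file holding the peaks of 1 library. Per the submitters' processing notes, Trim Galore, Bowtie2, Picard and MACS2 were used with GRCh38/hg38; the calling threshold and control are not given in the sources used here. The deposited score is a whole number of at least 50 whose definition is not stated, and served here for ranking and thresholds inside each list. None of the 292523 intervals ran beyond the hg38 chromosome lengths.

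For each of 20033 protein-coding genes (GENCODE release 44, hg38) the bp under peaks within 10 kb and 2 kb of the canonical TSS was summed per library (Python 3.11.15, numpy 2.4.6, pandas 2.3.3). Treatments were compared within each mark, and the exact test used scipy 1.17.1. The calling script was tested on simulated data. The genes and lists were chosen with earlier results of these data known. Library values are given for the 4 largest differences in each direction per mark among genes whose groups did not overlap, for genes without a promoter peak in some library and for genes with opposite calls between marks. PCNA, FEN1, LIG1, CCNA2, RPA2, TYMS, RRM2, RFC4 and CCNE1 were added after their values were seen. Alternatives were the 2 kb window, matched numbers of top-scoring peaks, a score of at least 100, scaling to all covered bp, the outermost gene end, pairing by replicate number, and leaving out each library.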

Additional observations from a re-analysis of the deposited data

Results flagged for a closer look

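4 genes had calls in opposite directions in different marks, with no overlap between the Corin and DMSO libraries in either mark. That is 9.09%, against 4.06% of protein-coding genes and 7.61% of those with H3K4me3 at the start, a share near that of other marked genes (9.52% of the 42 marked replication genes). MCM3 was 626 bp higher in H3K27ac and lower in H3K4me2 (-482 bp). CDC45 was 560 bp higher in H3K27ac and lower in H3K4me3 (-124 bp). PRIM2 was 406 bp higher in H3K27ac and lower in H3K4me3 (-33 bp). POLD2 was lower in H3K4me2 (-214 bp) and 439.5 bp higher in H3K4me3. The POLD2 H3K4me2 call was lost at a score of at least 100, and the PRIM2 H3K27ac call at that score and at a matched peak number. The difference between marks was not tested in any of them, since each mark was called with its own antibody and list length. Scaled to all covered bp, which can end a higher call but not a lower one, the H3K27ac sign turned for MCM3 and CDC45.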

How the results depend on the processing

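Of 103 values recomputed under alternatives, 68 kept their direction and stayed within 1.5 times the reported count or, for medians and the flank share, within the spread between libraries, 34 moved and 1 reversed. With all covered bp as the scale, H3K27ac calls were 5 higher and 9 lower (21 and 0 as reported), H3K4me2 2 and 23 (15 and 3), and H3K4me3 5 and 8 (11 and 2). At a matched peak number H3K27ac gave 12 higher and 1 lower (16.9% and 1.69% of protein-coding genes), and H3K4me2 5 lower (5.4%). H3K4me2 lower calls were 5 within 2 kb (4.73% of protein-coding genes) and 1 at a score of at least 100 (2.78%). A promoter peak in all 4 libraries fell to 5 genes in H3K27ac and 8 in H3K4me2 when the peak had to cover the TSS base, and to 14 in H3K27ac at a score of at least 100.

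With libraries left out one at a time, H3K27ac higher calls ranged from 24 to 34 and lower calls from 0 to 5, H3K4me2 from 16 to 32 and from 4 to 15, and H3K4me3 from 16 to 25 and from 4 to 12; with 1 library left in a group, non-overlap is easier to meet. The median H3K4me2 difference ranged from -22 bp (without Corin replicate 1, the 1 reversal) to 493.5 bp. The cause of these moves was not tested.

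With replicate numbers as a block, H3K4me3 gave 21 higher and 5 lower (21.2% and 8.86% of protein-coding genes), H3K4me2 18 and 6 (35.5% and 5.35%), and H3K27ac 28 and 0 (35.0% and 0.804%). What a shared number stands for is not labelled and there are 2 pairs per mark, so the numbers were not taken to pair the libraries. Deviations of same-numbered libraries correlated at 0.223, 0.237 and 0.211 over 20033 genes for H3K27ac, H3K4me2 and H3K4me3, and at 0.287, 0.19 and 0.546 over the 44 genes. Without read depth, a gene without a peak cannot be told apart from a gene below the calling threshold.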
